A study of Homo sapiens with 2 samples.

Results

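MET and its relative MST1R, the gene for RON, are the receptor tyrosine kinases of a pair of secreted growth factors, and their transcripts were measured here together with those of the ligands, the enzymes that activate the ligands, the inhibitors of these enzymes and the docking protein GAB1. The set comprises 10 genes (MET, MST1R, HGF, MST1, HGFAC, ST14, SPINT1, SPINT2, HPN and GAB1) of the 19775 that the array could name. Members were taken by gene symbol, as every probe set that the platform annotation pairs with 1 of these genes alone, which gave 27 probe sets. The cells were H322c, a non-small cell lung cancer (NSCLC) line. The treated culture received 1 µM gefitinib, a small molecule inhibitor of the EGFR kinase, for 4 days, and the control culture received 0.1% DMSO for 4 days. Cells of both cultures had been plated 24 hrs earlier in serum-containing RPMI medium, and total RNA of each was hybridized to 1 Affymetrix U133 Plus 2.0 array. A single line was used, and no genotype or manipulation beyond the drug is given in the labels.

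MET binds hepatocyte growth factor (HGF), a factor that fibroblasts and other stromal cells secrete and that makes epithelial cells grow, scatter and migrate. RON binds macrophage-stimulating protein (MSP), which the gene MST1 encodes and which the liver releases into the blood. Both ligands are made as inactive single chains and become active only when a trypsin-like serine protease cuts them, and the proteases known to do so include HGF activator (HGFAC), matriptase (ST14) and hepsin (HPN). HAI-1 (SPINT1) and HAI-2 (SPINT2) are membrane-bound Kunitz inhibitors that hold matriptase and its relatives in check on epithelial cells. In lung cancer the receptor is best known because extra copies of the MET gene can carry tumor cells past EGFR inhibitors.

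Since each condition had 1 array, replicates were lacking, no test was run, and every fold is a description of the 2 arrays, whose number limits the precision. Signals were MAS5 intensities on a linear scale, scaled so that both arrays had a 2% trimmed mean of 500.1. Signals under 100, a floor above the level of most probe sets (60.4% of them lay below it on the gefitinib array and 61.6% on the DMSO array), were set to 100. Genes with a probe set at 100 or more on either array are called measured, a gene took the value of its brightest probe set, and differences of at least 2-fold were counted. Where 1 of the signals was under 100, the fold is a lower limit, given as "at least". Of the 11223 measured genes, 6.2% were at least 2-fold lower and 13.3% at least 2-fold higher on the gefitinib array, and their median log2 ratio of gefitinib over DMSO was 0.12. Of all genes past 2-fold, 68.2% were higher as deposited, 50.9% were higher with the arrays scaled to bacterial spike-in transcripts and 80.2% with scaling to GAPDH. Between probe sets of the same gene the log2 ratio had a pooled SD of 0.54 (4610 genes, both signals at 100 or more) and is no measure of how cultures vary. The labelled cell type was checked on markers. All 6 epithelial markers were measured and within 2-fold, and the 4 leukocyte genes with probe sets were under the floor. Of 6 fibroblast markers COL1A1 was measured (950.2 with gefitinib, 420.8 with DMSO), and the summed signal of that list was 2068.8 with gefitinib and 1309.5 with DMSO. The other markers of that list, COL1A2, COL3A1, DCN, LUM and PDGFRB, had no signal above 44.5. Of 5 endothelial markers VWF (496.0 with gefitinib, under the floor with DMSO) and PECAM1 (78.0 with gefitinib, 128.4 with DMSO) were measured, the summed signal was 659.2 with gefitinib and 268.6 with DMSO, and CDH5, KDR and TEK were under the floor. The part of these signals in the results was not tested.

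Both receptors were lower on the gefitinib array, and they are the only members that were at least 2-fold lower (2 of 8 measured members, against 6.2% of all measured genes). The MSP gene MST1 was the only member at least 2-fold higher (1 of 8, against 13.3% of all measured genes), at 1 of its 2 probe sets. In either direction 3 of the 8 passed 2-fold, against 19.5% of all measured genes. ST14, SPINT1, SPINT2, HPN and GAB1 stayed within 2-fold, and HGF and HGFAC were under the floor with both treatments. The log2 ratios of the 8 measured members had a median of 0.13, beside 0.12 for all measured genes.

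**Figure D1:**
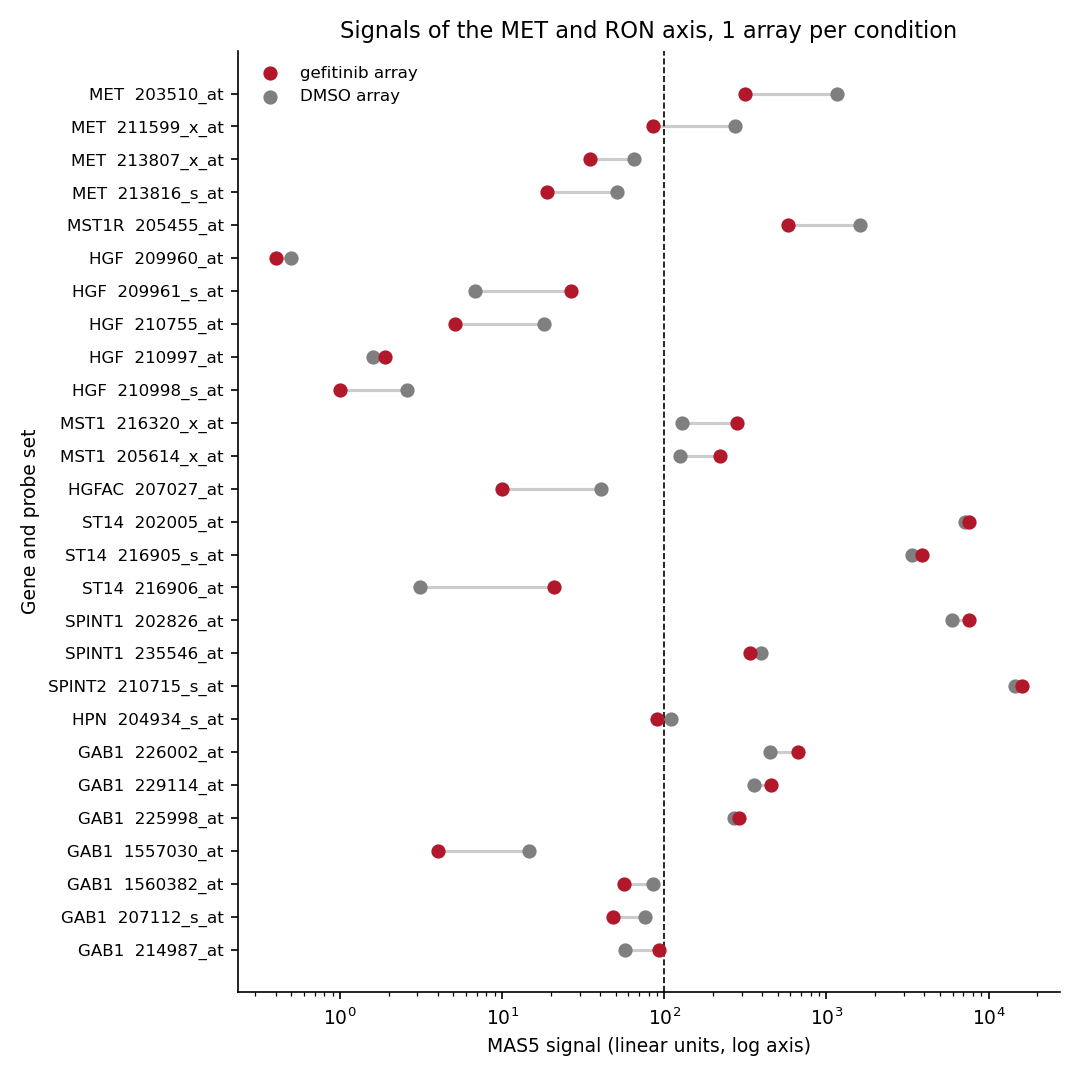
MAS5 signal (horizontal log axis) of all 27 probe sets of the 10 genes on the gefitinib array (red) and the DMSO array (grey), 1 array per condition; a grey bar joins the signals of 1 probe set and the dashed line is the floor of 100. The red points of MET 203510_at (315.1) and MST1R 205455_at (580.8) lie left of their grey points (1158.0 and 1615.6), those of the MST1 probe sets lie right of theirs, and the 5 HGF probe sets all lie left of the floor.

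MET was represented by 4 probe sets. At its brightest, 203510_at, the signal was 315.1 with gefitinib, against 1158.0 with DMSO, 3.68-fold lower (log2 ratio -1.88). At 211599_x_at it was 85.4 with gefitinib and 273.7 with DMSO, at least 2.74-fold lower. The other 2 probe sets were under the floor on both arrays, so their differences were not counted. Their raw signals were 34.7 with gefitinib and 64.6 with DMSO at 213807_x_at, and 18.8 with gefitinib and 50.8 with DMSO at 213816_s_at. All 4 raw signals were thus lower on the gefitinib array. Among the 10190 genes with both signals at 100 or more, MET stood at rank 109 from the lowest ratio. A lower signal from a whole culture does not tell fewer cells with the transcript from less transcript per cell.

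MST1R had a single probe set, 205455_at. Its signal was 580.8 with gefitinib, against 1615.6 with DMSO, 2.78-fold lower (log2 ratio -1.48, rank 239 from the lowest of the same 10190 genes). Both signals were well above the floor, and the fold rests on this probe set with no other to set beside it. The log2 ratio of MET was 0.40 below that of MST1R, a gap smaller than the SD of 0.54 between probe sets of 1 gene. Over 12 settings (the values as deposited and the 11 alternatives named under the processing) the fold of MET ran from 3.17-fold to 4.22-fold lower and that of MST1R from 2.46-fold to 3.17-fold lower. The 3.17-fold of MET came from the mean over probe sets, which includes a bound, and is itself a lower limit.

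The promoters of MET and MST1R are shown because these receptor genes were the 2 members at least 2-fold lower. Each line gives the 250 bases before the annotated start in RefSeq's GRCh38.p14 annotation, where both genes matched by symbol. MET lies on the plus strand, chr7:116671946-116672195, and MST1R on the minus strand, chr3:49903874-49904123. Capitals mark the letters GGGCGG, the GC box bound by SP1-type factors, and GGAA, the core of ETS-factor sites, each searched on both strands (as CCGCCC and TTCC on the other), with overlapping matches counted.
MET: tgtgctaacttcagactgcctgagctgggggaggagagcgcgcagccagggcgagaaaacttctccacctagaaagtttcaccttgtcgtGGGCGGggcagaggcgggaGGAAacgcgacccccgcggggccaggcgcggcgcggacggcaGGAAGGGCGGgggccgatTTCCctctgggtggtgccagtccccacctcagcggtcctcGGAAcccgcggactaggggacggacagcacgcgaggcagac
MST1R: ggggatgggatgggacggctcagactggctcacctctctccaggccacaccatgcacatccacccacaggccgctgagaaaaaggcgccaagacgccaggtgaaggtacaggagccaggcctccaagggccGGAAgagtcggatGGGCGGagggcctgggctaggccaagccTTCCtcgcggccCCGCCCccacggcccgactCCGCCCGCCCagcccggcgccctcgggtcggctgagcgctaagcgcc

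The MET window held 2 GC boxes and 4 ETS cores, and the MST1R window 4 GC boxes and 2 ETS cores. Of 35116 promoter windows of the same length, 42.6% held at least 1 GC box and 92.7% at least 1 ETS core, so that the core is present in nearly every promoter. The longer ETS form CCGGAA, which contains the core, was found once in the MST1R window and not in the MET window, and 14.5% of all windows held it. The AP-1 letters TGANTCA were in neither window and in 6.57% of all windows. The share of G and C was 68.4% for MET and 70.8% for MST1R, against a median of 58.0% over all windows. A match of letters is a description of the sequence and was not tested as a site.

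Set beside the other receptor tyrosine kinases, each at its brightest probe set, MET and MST1R stood at the low end. Most measured genes of this family were higher on the gefitinib array. This list of 56 other kinase genes was drawn up after the values had been seen, and 28 of them were measured. Of these 28, 8 were at least 2-fold higher, against 13.3% of all measured genes. In the other direction 1 was at least 2-fold lower, against 6.2%, and the median log2 ratio of the 28 was 0.60. The one that was lower was EPHA2, a receptor for ephrin-A ligands, with 858.1 on the gefitinib array and 2475.1 on the DMSO array (2.88-fold lower). With bounds taken at their limits, MET had the lowest log2 ratio of the 30, followed by EPHA2 at -1.53 and MST1R at -1.48, which differed from each other by less than the SD between probe sets. The next were AATK at -0.70 and ROR1, which was at least 1.58-fold lower. ROR1 had 28.8 with gefitinib and 158.3 with DMSO, and its bound settles neither its place in this order nor whether it passed 2-fold. The ephrin receptors went both ways, since EPHA4 had 411.6 with gefitinib and 44.4 with DMSO (at least 4.12-fold higher). Among the 8 higher kinases MERTK only just passed, at 2.00-fold. Probe sets of the same kinase could disagree, and the 5 measured ones of EGFR had log2 ratios from -1.29 to 2.93.

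**Figure D2:**
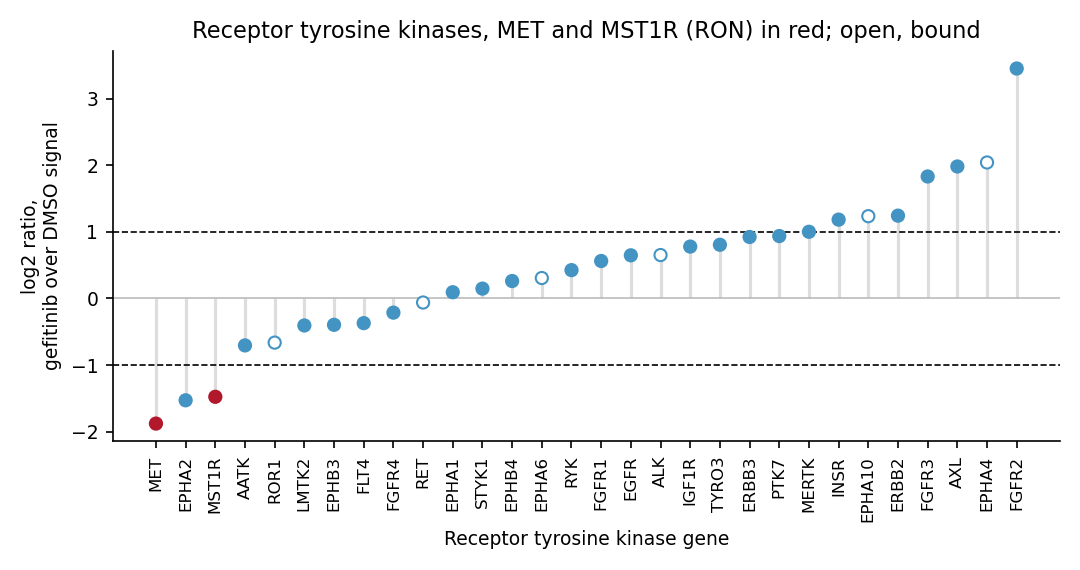
Vertical axis, log2 of the gefitinib signal over the DMSO signal, for 30 measured receptor tyrosine kinase genes at their brightest probe sets, in order of the ratio, 1 array per condition. MET (-1.88) and MST1R (-1.48) are red, open points are bounds because 1 signal is under 100, and dashed lines mark 2-fold; with EPHA2 (-1.53) they are the only points under the lower line.

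The ligands differed in whether they could be measured at all. HGF had 5 probe sets, and the highest signal among them on each array was 26.4 with gefitinib and 18.2 with DMSO, so that no transcript of the MET ligand was measured in either culture. The ligand of RON was measured. MST1 had a signal of 281.4 with gefitinib and 128.1 with DMSO at 216320_x_at, 2.20-fold higher (log2 ratio 1.14). At 205614_x_at it was 219.9 with gefitinib and 124.9 with DMSO, 1.76-fold higher. Both MST1 probe sets point in 1 direction, and both DMSO signals lie just above the floor. Both names end in _x_at, which marks probe sets with probes that can bind other transcripts, and 1 further probe set is annotated to MST1 together with its relatives MST1L and MST1P2 and was not used. The part of these relatives in the MST1 signal was not tested. MST1 passed 2-fold under 5 of 11 settings. Its log2 ratio was between 0.90 and 0.98 with a pseudocount of 50, the mean over probe sets, spike-in scaling, quantile normalization or lowess correction, and with a floor of 200 its bound was 1.41-fold.

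Among the proteases that activate HGF and MSP, matriptase was abundant and close to equal on both arrays. ST14 had a signal of 7618.1 with gefitinib and 7114.0 with DMSO at 202005_at, a log2 ratio of 0.10. At 216905_s_at it was 3865.0 with gefitinib and 3377.1 with DMSO, a log2 ratio of 0.19. The remaining ST14 probe set, 216906_at, was under the floor, with 20.9 with gefitinib and 3.1 with DMSO. Hepsin was at the edge of measurement, since HPN had 90.1 with gefitinib and 109.3 with DMSO (at least 1.09-fold lower), and HGFAC had 10.0 with gefitinib and 40.9 with DMSO, both under the floor. Matriptase was therefore the only one of these 3 activators with a signal well above the floor.

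Both inhibitors of matriptase were also within 2-fold. SPINT1 had 7552.8 with gefitinib and 5906.2 with DMSO at 202826_at, a log2 ratio of 0.35. Its dimmer probe set 235546_at pointed the other way, with 338.1 with gefitinib and 395.2 with DMSO (log2 ratio -0.23). SPINT2 had 16164.1 with gefitinib and 14468.9 with DMSO at its single probe set 210715_s_at, a log2 ratio of 0.16. The log2 ratios of ST14 and SPINT1 differed by 0.26, and those of ST14 and SPINT2 by 0.06, less than the SD of 0.54 between probe sets of 1 gene. With spike-in scaling the log2 ratio was -0.09 for ST14 and -0.03 for SPINT2, so neither has a settled direction.

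GAB1, the docking protein that couples MET to PI3 kinase, SHP2 and the ERK pathway, had log2 ratios of 0.57, 0.35 and 0.12 at its 3 measured probe sets, of which the last turns negative with spike-in scaling. Its signal was 670.4 with gefitinib and 450.4 with DMSO at 226002_at (1.49-fold higher). The signals were 456.9 with gefitinib and 358.9 with DMSO at 229114_at, and 290.6 with gefitinib and 267.9 with DMSO at 225998_at. None of these passed 2-fold. The other 4 GAB1 probe sets had both signals under 100. Under the 12 settings the log2 ratio of GAB1 ran from 0.35 to 0.75.

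**Figure D3:**
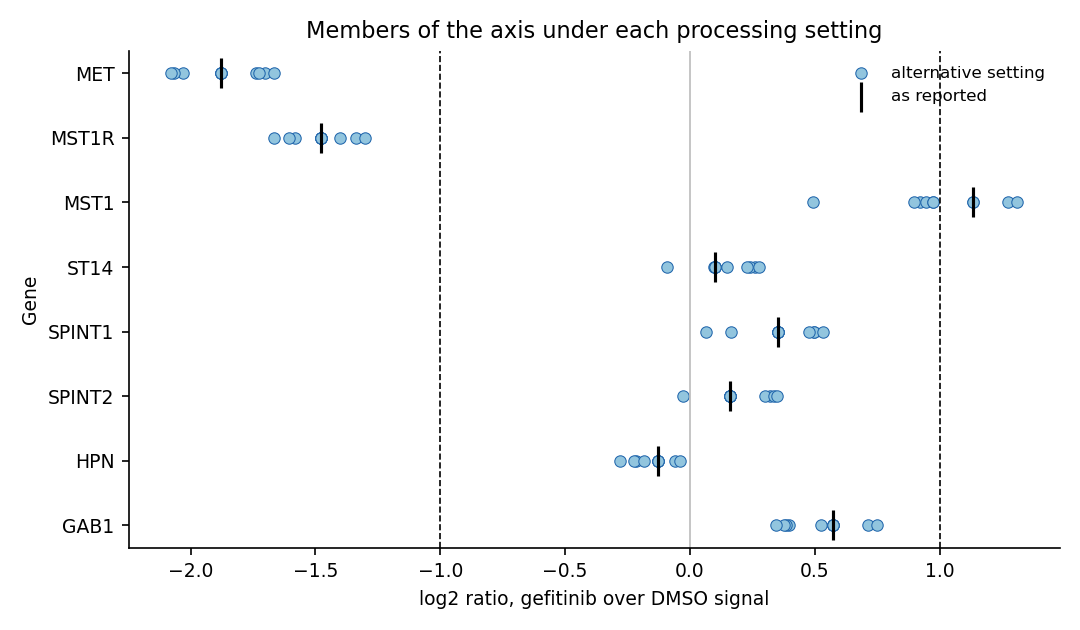
Horizontal axis, log2 of the gefitinib signal over the DMSO signal, of the 8 measured members as reported (black bars) and under the alternative settings (blue points); dashed lines mark 2-fold. MET (from -2.08 to -1.67) and MST1R (from -1.67 to -1.30) stay left of the lower line, while the points of MST1 (from 0.49 to 1.31) lie on both sides of the upper line. The -1.67 of MET is a mean over probe sets that includes a bound.

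Around these members, the proteins that sit beside MET and RON in the membrane went in both directions. Of 14 listed partners 10 were measured, with a median log2 ratio of 0.21. Among these 10, 3 were at least 2-fold higher and 2 at least 2-fold lower, against 13.3% and 6.2% of all measured genes. The lower pair were the subunits of the laminin receptor α6β4 integrin, which associates with both receptors. ITGA6 had 2002.8 with gefitinib and 4763.2 with DMSO (2.38-fold lower), and ITGB4 had 2439.8 with gefitinib and 5490.3 with DMSO (2.25-fold lower). A second ITGB4 probe set had a log2 ratio of -0.42, the mean over its probe sets was -0.79, and its log2 ratio was -0.99 with scaling to GAPDH. Dimmer probe sets of ITGB1 and NRP1 were 2.13-fold and 2.76-fold lower, while their brightest had log2 ratios of -0.31 and 0.30. Among the partners that were higher were the semaphorin receptors plexin-B1 and plexin-B2, which can form complexes with MET. PLXNB1 had 731.3 with gefitinib and 188.8 with DMSO (3.87-fold higher), and PLXNB2 had 4321.8 with gefitinib and 1756.0 with DMSO (2.46-fold higher). Each plexin value rests on 1 measured probe set. The adhesion molecule ICAM1 had 315.8 with gefitinib and 41.3 with DMSO, at least 3.16-fold higher, and with a floor of 200 its bound was 1.58-fold. CD44, whose variant form is a coreceptor of MET in other epithelial cells, had 13 probe sets with no signal above 25.8, and was singled out after its values had been seen.

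At their brightest probe sets, 13 of 14 measured adaptors and effectors that both receptors use were within 2-fold (median log2 ratio 0.33). Of all measured genes, 19.5% were past 2-fold. The exchange factor SOS1 was 2.56-fold higher at its brightest probe set, but its other 2 measured probe sets had log2 ratios of -0.69 and -0.40, and the mean over them was 0.09. RAPGEF1, an exchange factor that acts with the CRK adaptors, was 1.97-fold higher, and PLCG1, a phospholipase that binds the active receptors, was 1.82-fold higher. Both passed 2-fold with scaling to GAPDH or centring on the control probe sets. SHC1, an adaptor between receptors and GRB2, was 1.67-fold lower at its brightest probe set and 2.85-fold lower at a dimmer one. GRB2 and PTK2 had log2 ratios of -0.25 and 0.35 at their brightest probe sets. At a dimmer one each they were 2.12-fold and 3.71-fold lower.

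Of 15 measured genes listed for turnover and inhibition of MET, 1 was at least 2-fold lower and 2 were at least 2-fold higher (median log2 ratio -0.11). The shares of all measured genes were 6.2% and 13.3%. SH3KBP1, the CIN85 adaptor that joins CBL in the internalization of the receptor, had 1167.7 with gefitinib and 4096.1 with DMSO, 3.51-fold lower, and its second measured probe set was 3.24-fold lower. CBL itself, the ubiquitin ligase of MET, was 1.81-fold lower, a log2 ratio that reached -1.04 with spike-in scaling. LRIG1, a membrane protein that lowers the level of several receptors, had 2319.4 with gefitinib and 987.7 with DMSO (2.35-fold higher). NCSTN, a subunit of the γ-secretase that cuts shed receptors, had 2306.8 with gefitinib and 1086.8 with DMSO (2.12-fold higher), and it was 1.86-fold higher with spike-in scaling.

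Few other serine proteases of the cell surface could be measured. Of 11 type II transmembrane serine proteases other than ST14 and HPN that had a probe set, 3 were measured. TMPRSS11E, an airway and squamous epithelial protease, had 116.3 with gefitinib and 762.8 with DMSO (6.56-fold lower), TMPRSS13 had 678.2 with gefitinib and 259.7 with DMSO (2.61-fold higher), and TMPRSS4 had 1230.9 with gefitinib and 1323.9 with DMSO. Each rests on 1 measured probe set. With a floor of 200, TMPRSS11E was at least 3.81-fold lower.

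Of other activators of the ligands or of matriptase and their inhibitors, 7 genes were measured. Of these 7, 2 were at least 2-fold lower and 0 at least 2-fold higher, against 6.2% and 13.3% of all measured genes. The median log2 ratio of the 7 was -0.75 and includes 2 bounds. PLAU, the urokinase that can also cut HGF, had 4006.6 with gefitinib and 12662.4 with DMSO, 3.16-fold lower, and its second probe set was 3.04-fold lower. KLK5, a kallikrein that can start matriptase activation in skin, had 109.1 with gefitinib and 276.6 with DMSO (2.54-fold lower), and with a floor of 200 it was at least 1.38-fold lower. PLAT and KLK4 were at least 1.69-fold and at least 1.94-fold lower, bounds that do not settle whether they passed 2-fold. Prostasin (PRSS8), the protease partner of matriptase in epithelia, had 5026.3 with gefitinib and 7138.5 with DMSO, a log2 ratio of -0.51. F12 (log2 ratio 0.27) and the inhibitor SERPINF2 (0.44) were higher but within 2-fold.

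Among 5 measured substrates of matriptase or prostasin, 1 was at least 2-fold lower, against 6.2% of all measured genes. This was again PLAU, and the median log2 ratio of the 5 was 0.05. The adhesion protein EPCAM (log2 ratio 0.17) and the sodium channel subunit SCNN1A (0.13) were within 2-fold at their brightest probe sets, and both ratios turn negative with spike-in scaling. A second SCNN1A probe set was at least 2.49-fold lower. For CDCP1, a transmembrane protein that matriptase cuts, the brightest probe set had a log2 ratio of 0.05, whereas 1554110_at had 93.2 with gefitinib and 2279.3 with DMSO, at least 22.8-fold lower. CDCP1 was singled out after its values had been seen, and its probe sets do not give 1 direction.

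**Figure D4:**
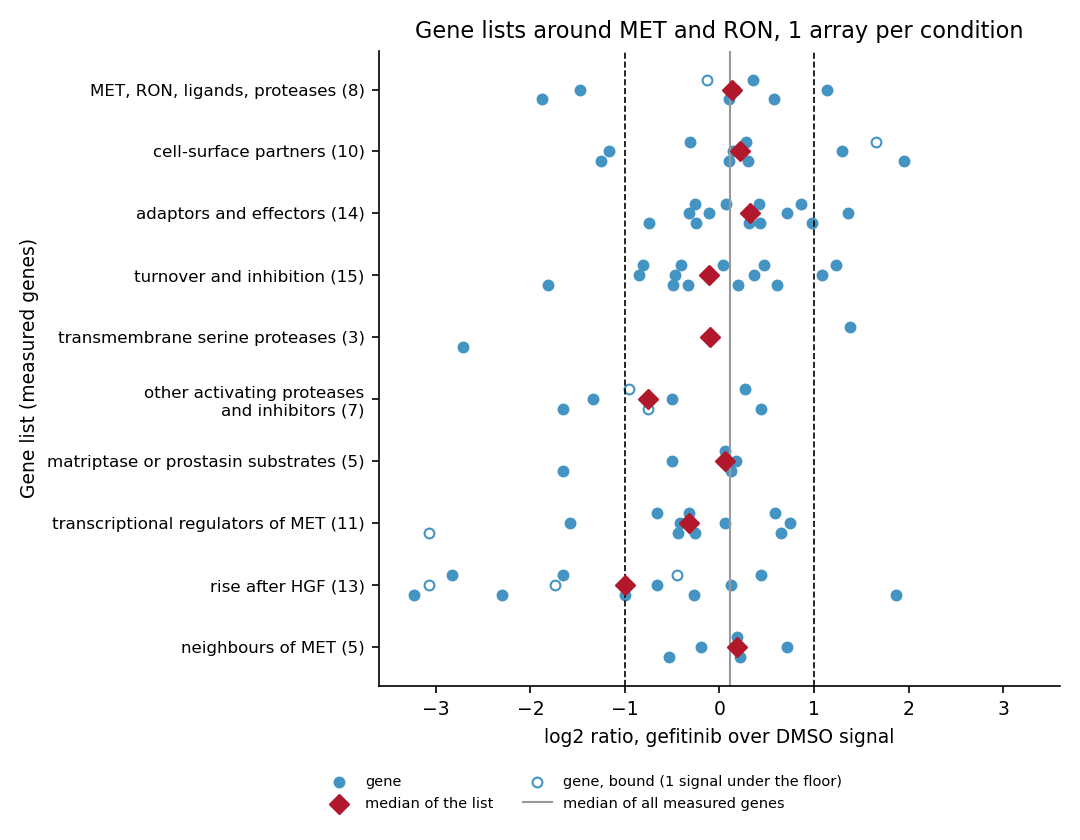
Horizontal axis, log2 of the gefitinib signal over the DMSO signal, of the measured genes in 10 lists, each label giving how many were measured, 1 array per condition. Blue points are genes at their brightest probe sets (open for bounds), red diamonds are list medians, the grey line is the median of all measured genes (0.12) and dashed lines mark 2-fold; the list medians run from -0.996 for transcripts that rise after HGF to 0.33 for adaptors and effectors.

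Among 11 measured regulators of MET transcription (median log2 ratio -0.32), 0 were at least 2-fold higher, against 13.3% of all measured genes. In the other direction 2 were at least 2-fold lower, against 6.2%. These 2 were AP-1 subunits, transcription factors that act downstream of growth factor receptors. FOSL1 had 86.3 with gefitinib and 838.6 with DMSO, at least 8.39-fold lower (at least 4.19-fold with a floor of 200). JUN had 1739.1 with gefitinib and 5208.0 with DMSO at its brightest probe set, 2.99-fold lower. The mean log2 ratio over its 4 measured probe sets, which includes a bound, was -0.99. SP1, which binds GC boxes, had a log2 ratio of -0.66 at its brightest probe set and of -0.36 and -0.09 at its other measured ones. ETS1, an ETS factor that can activate MET, had log2 ratios of 0.75 at its brightest and 0.58 at a dimmer one. No measurement here links these factors to the MET or MST1R promoter.

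Some transcripts are known to rise when HGF is added to epithelial cells, and many of them also respond to EGFR and ERK signaling. Of 13 measured, 6 were at least 2-fold lower and 1 at least 2-fold higher, against 6.2% and 13.3% of all measured genes. These 6 include PLAU, counted above among the activators and the substrates, and FOSL1, counted above among the regulators. The median log2 ratio of the 13 was -0.996 and includes bounds taken at their limits. It was -0.70 with a floor of 200 and -1.21 with quantile normalization. VEGFA had log2 ratios of 0.44 and 0.35 at its brighter probe sets but was 2.21-fold and at least 2.59-fold lower at dimmer ones. PLAUR, the urokinase receptor, had 390.3 with gefitinib and 3656.0 with DMSO (9.37-fold lower). EGR1, an immediate early transcription factor, had 381.3 with gefitinib and 2703.1 with DMSO (7.09-fold lower), and the survival gene IER3 had 2352.4 with gefitinib and 11565.2 with DMSO (4.92-fold lower). FOSL1, given above, completes the 4 with the largest ratios. The one that was higher was SNAI2, a repressor of epithelial genes, with 835.3 with gefitinib and 228.5 with DMSO (3.66-fold higher), named after its values had been seen.

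The measured genes next to MET on chromosome 7 differed less than MET between the arrays. Of the 5 protein-coding genes on each side, in the order of the GRCh38.p14 annotation, 5 were measured. Of these, 0 passed 2-fold in either direction at their brightest probe sets or at any other measured probe set. The share of all measured genes past 2-fold was 19.5%. The caveolins CAV1 and CAV2, next to MET on one side, were lower at every measured probe set. Their log2 ratios were -0.20 and -0.45 for CAV1 and -0.53 and -0.49 for CAV2. At the brightest probe sets CAV1 had 3418.0 with gefitinib and 3917.6 with DMSO, and CAV2 had 3276.7 with gefitinib and 4730.6 with DMSO. CAPZA2, an actin capping subunit next to MET on the other side, had 3832.0 with gefitinib and 3374.7 with DMSO (log2 ratio 0.18, which falls just below 0 with spike-in scaling). TES, a focal adhesion protein, had log2 ratios of 0.71 and -0.73 at its 2 measured probe sets, and MDFIC had 0.22 at its brightest. TFEC, WNT2, ASZ1 and CFTR were under the floor, and ST7 was not analysed here. The difference of MET was thus larger than that of each measured neighbor, and gene copy number was not measured.

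**Figure D5:**
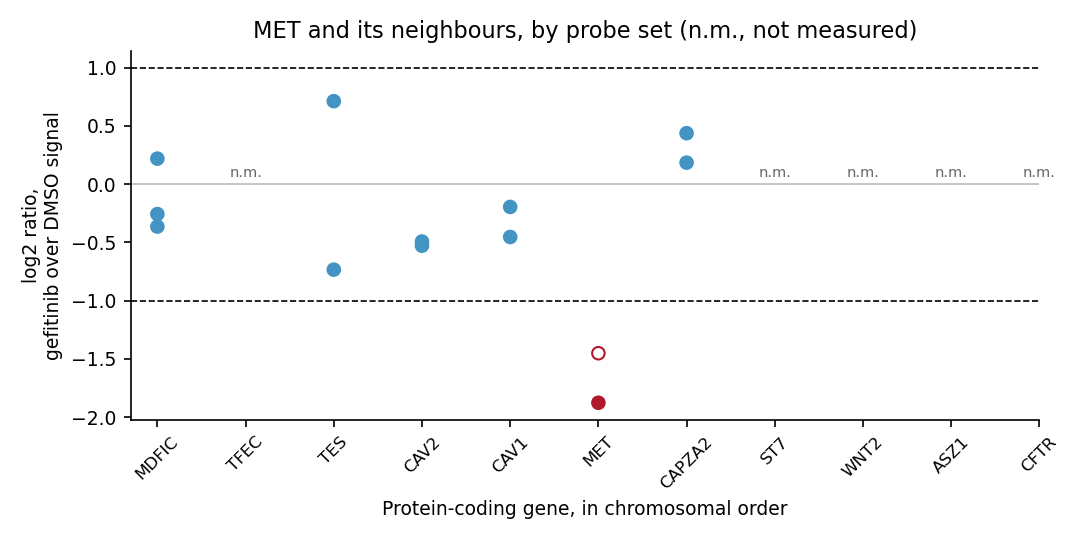
Vertical axis, log2 of the gefitinib signal over the DMSO signal, of every measured probe set of MET (red) and of the 5 protein-coding genes on each side of it (blue), in chromosomal order and not to distance, 1 array per condition. The open point is a bound, dashed lines mark 2-fold and n.m. marks genes that were not measured; the points of the neighbors lie between -0.73 and 0.71, above both points of MET (-1.45 and -1.88).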

How the data were processed

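RNA of H322c cells treated with gefitinib or with DMSO was measured on 1 Affymetrix U133 Plus 2.0 array per condition. The authors deposited 1 linear signal intensity per probe set and array. MAS5 is named in the submitters' processing notes (version not given in the sources used here); it subtracts background and mismatch signal and brings the arrays to the same trimmed mean, which would hide a shift shared by most transcripts. No detection calls were used. Of 54675 probe sets, 41097 were paired with 1 gene by the platform annotation, 1801 with several and 11777 were unlisted here. Symbols were updated through gene identifiers of GRCh38.p14 (41043 matched).

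Signals under 100 were set to 100, and each gene's log2 ratio (gefitinib over DMSO) came from the probe set whose mean log2 signal was highest. No test was run. Members and gene lists were chosen with earlier results of these data known. The text names all members, in each list the 4 genes farthest from 0 in log2 ratio, those past 2-fold where a list has 6 or fewer, and the measured neighbors of MET. Genes named outside this rule are CD44, ITGB1, NRP1, GRB2, PTK2, F12, SERPINF2, CDCP1, SNAI2, VEGFA, the kinases and the cell markers. The 11 alternatives were quantile normalization, centring on the control probe sets 200000 to 200099, scaling to the GAPDH 3′ control, scaling to spike-ins, lowess (span 0.3), floors of 50 and 200, log2 of the signal plus 50, the mean over probe sets, the highest signal on either array and leaving out probe sets ending in _x_at; thresholds of 1.5-fold and 3-fold were also tried. Promoter sequences came from RefSeq. The procedure was run on simulated data with planted differences in genes well above the floor. The simulated noise was smaller than the spread between probe sets of 1 gene, so that run does not show how reliable the 2-fold calls are here. Tools were Python 3.11.15, pandas 2.3.3, numpy 2.4.6, statsmodels 0.14.6, scipy 1.17.1 and matplotlib 3.10.9.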

Additional observations from a re-analysis of the deposited data

How the results depend on the processing

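MET and MST1R were at least 2-fold lower under the values as deposited and all 11 alternatives. At a threshold of 3-fold the number of lower members was 1, MET, in place of 2. The number of members at least 2-fold higher, 1 as deposited, was 0 with quantile normalization, spike-in scaling, lowess correction, a floor of 200, log2 of the signal plus 50, the mean over probe sets, leaving out _x_at probe sets (which leaves MST1 with no probe set) and at 3-fold. The median log2 ratio of the other activating proteases and their inhibitors was -1.34 with a floor of 50. That of the matriptase or prostasin substrates was -0.59 with the mean over probe sets, the value of SCNN1A, which includes a bound. The other 136 comparisons with an alternative, of the list medians, the 2 counts of members and the MET ratio, moved by less than 0.54 in log2 ratio or by at most 1.5 times in count. Counts of list genes past 2-fold moved further. With GAPDH 3 adaptors were higher and 1 partner lower, against 1 and 2 as deposited, and centring on control probe sets also gave 3 adaptors. Among turnover genes 3 were lower and 1 higher with spike-in scaling, against 1 and 2, and 2 were lower with quantile normalization or lowess correction. Of the other activators 4 were lower with a pseudocount of 50 or a floor of 50, against 2. This count was 3 with quantile normalization, spike-in scaling or lowess correction and 1 with a floor of 200. Of the other receptor tyrosine kinases 2 were lower with a pseudocount of 50 or a floor of 50, against 1. The higher kinases numbered 6 with spike-in scaling, lowess correction or the mean over probe sets, against 8. They numbered 10 with GAPDH or centring on control probe sets. The kinase median was 0.37 with spike-in scaling and 0.74 with GAPDH, against 0.60. With the mean over probe sets, 0 adaptors were higher and 1 lower. That setting also gave 1 lower partner and 1 lower regulator, against 2 each, and 2 lower substrates, against 1. With the highest signal on either array 3 partners were lower, against 2. The median log2 ratio of all measured genes was 0.25 after centring on control probe sets, 0.28 with GAPDH and -0.06 with the spike-ins, against 0.12 as deposited. Spike-in scaling lowers log2 ratios by 0.19 where both signals are above the floor, and the smaller positive ratios of ST14 and SPINT2 turn negative. The counts of all genes at least 2-fold lower and higher were then 1036 and 1072, against 696 and 1491 as deposited, 1675 and 2961 at 1.5-fold and 230 and 536 at 3-fold. No paired analysis was possible because each condition has 1 array. The ratios of MST1, HPN, KLK5, PLAT, KLK4, ICAM1, FOSL1 and TMPRSS11E rest on at least 1 signal near or under the floor.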
